A study of Mus musculus with 4 samples.

Results

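The genes described here are 32 genes of the p53 response, taken by symbol from a table of 18042 genes that compares the dentate gyrus of Eed conditional knockout mice (Eed cKO) with that of wild-type mice (WT). All 32 were present, and all 32 passed a filter on low values, which left 15020 genes to test. The dentate gyrus is a hippocampal field built of granule neurons, with progenitors that keep forming them after birth. RNA was sequenced from 2 Eed cKO and 2 WT libraries, all from C57BL/6 mice at postnatal day 14, with no treatment named in either group. The labels name no Cre driver, no deleted exon and no sex, litter or batch, so the cells that lost Eed are not given. The replicates are called biological, but whether each came from 1 animal is not stated.

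Eed is a core subunit of Polycomb repressive complex 2, which methylates lysine 27 of histone H3 and keeps developmental genes and the Cdkn2a locus silent. The transcription factor p53, encoded by Trp53, is held low by its ubiquitin ligase Mdm2 and its repressor Mdm4. Stress signals release it from them, and it then raises genes that halt the cell cycle, trigger death, repair DNA or restrain growth signalling. Several of its targets, Mdm2 among them, feed back on it. The genes were grouped by role into p53 and its regulators, cell cycle and proliferation, nutrient and oxidative stress, DNA repair and nucleotide supply, death receptors and apoptosis machinery, and survival signalling and RNA. Although the set is meant to hold targets outside cell death, 9 of the 32 genes belong to the death receptor and apoptosis machinery group, and Trp53, Mdm4 and Wrap53 are the factor, a regulator and a neighbouring gene rather than classic targets.

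The libraries, called Eed cKO A and B and WT A and B, held between 17263273 and 17789587 counts. Eed itself had 133 and 142 counts in the Eed cKO libraries, against 251 and 301 in the WT libraries, a log2 fold change of -0.98 (adjusted p = 0.0189 in limma). Xist, the RNA of the inactive X chromosome, had counts of 3809 (A) and 8 (B) in the Eed cKO libraries, against 11 and 8 in the WT libraries. Eif2s3y, Ddx3y, Kdm5d and Uty, on the Y chromosome, had 0 to 1 count in Eed cKO A and 167 to 850 elsewhere, so by these genes Eed cKO A was like a female and the other 3 libraries like males, which the labels do not give. The choroid plexus gene Ttr had 35706 and 23697 counts in the Eed cKO libraries, against 33234 in WT A and 110 in WT B. Granule neuron markers were lower in Eed cKO for 7 of 10 genes, with summed levels of 7015 to 7457 normalized counts in Eed cKO against 12367 to 15745 in WT. Their defining gene Prox1 had 925 and 860 counts in Eed cKO libraries, against 3381 and 4482 in WT libraries. In whole tissue, fewer cells of a type and less RNA per cell cannot be told apart.

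Of the 32 genes, 7 were higher in Eed cKO than in WT at an adjusted p of 0.05 or less in limma, and none was lower. The 7 were Eda2r, Phlda3, Aen, Ccng1, Psrc1, Pidd1 and Tnfrsf10b, which make up 21.9% of the set, while 3.54% of all genes tested were called higher. Eda2r passed the filter only through its Eed cKO libraries, so its call adds no support to this share. Beside the 0 genes called lower, where 2.9% of all genes tested were, 1 gene (Sesn1) was lower at an unadjusted p under 0.05, and edgeR and DESeq2 each called 0 lower. At that unadjusted level 12 of the 32 genes differed, 11 of them higher, against 24.8% of all genes tested in either direction and 12.4% higher. Most of the set changed little, and its median log2 fold change was 0.09, against -0.00 over all genes tested. Aen, Ccng1, Eda2r, Phlda3 and Psrc1 were called with either WT library left out, in limma and in edgeR. Those fits assume that the lone WT library varies like the Eed cKO libraries, so their calls are no independent support. Without WT A, limma called Sesn2 in place of Tnfrsf10b, again 7 higher, and Sesn1 lower, beside 9.23% of all genes tested in either direction. Without WT B, it called Trp53inp1 in place of Pidd1, again 7 higher, beside 6.36%. With an Eed cKO library left out, the lone one is assumed to vary like the WT libraries, and limma then called 0 of the 15020 genes (2165 with an unadjusted p below 0.05 with A left out, and 1989 with B left out), so its lost calls carry nothing about these 32 genes. With all libraries, edgeR also called 7 of the set higher, beside 6.65% of all genes tested in either direction, and DESeq2 called 7, beside 6.95%. In edgeR, leaving out Eed cKO A left Eda2r and Phlda3 called (1.05% of all genes tested), and leaving out Eed cKO B left 0 of the set (10 higher at an unadjusted p under 0.05, and 0.426% of all genes tested called). Without WT A or WT B, edgeR made the same exchanges as limma (11.1% and 7.7% of all genes tested called), with Sesn1 lower without WT A.

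Taken in either direction, the groups were separated about as often as elsewhere in the table, but more of the separated genes were higher than lower. The Eed cKO and WT libraries did not overlap for 18 of the 32 genes, 14 higher and 4 lower in Eed cKO, whereas 27.8% of all genes tested lay wholly higher and 29.0% wholly lower. The share of the set in either direction, 56.25%, stood beside 56.8% for all genes tested. The summed level of the 32 genes was 22488 and 22504 normalized counts in the Eed cKO libraries, against 20754 and 21567 in the WT libraries.

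**Figure D1:**
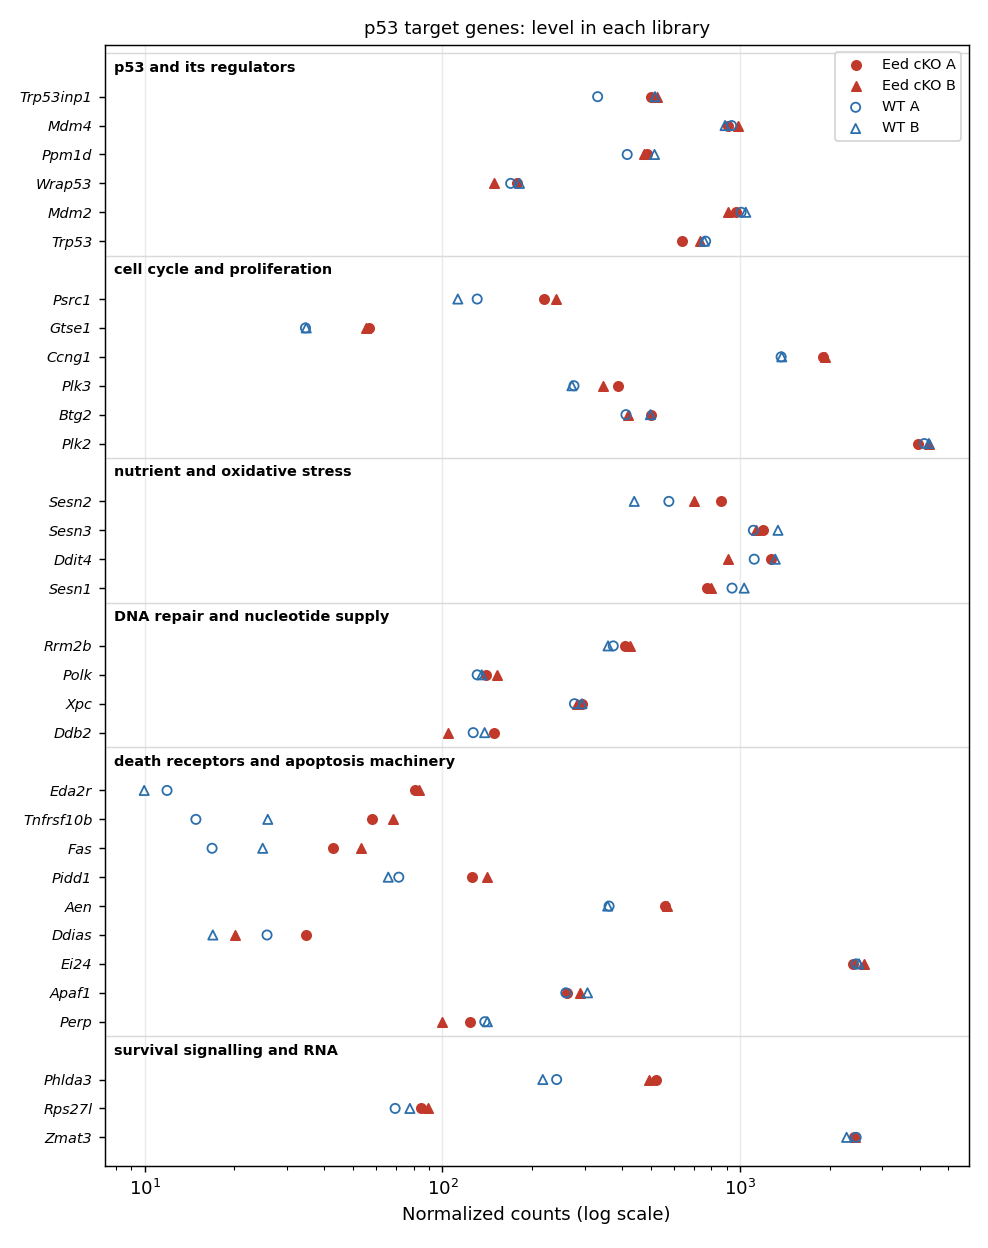
Normalized counts (log scale) of each of the 32 genes in every library, grouped by role, with Eed cKO in filled red and WT in open blue symbols, circles for A and triangles for B. The Eed cKO points of Eda2r, at 81 and 83 counts, lie far right of its WT points at 12 and 10, while Plk2, Ei24 and Zmat3, with the highest counts of the set, have all 4 points close together.

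The promoter sequences of the set were searched for the p53 binding motif, a consensus decamer with the core CNNG (N being A or T) that p53 binds in pairs. RefSeq promoters of GRCm38.p6, spanning 250 bases before to 50 bases after a gene's start, were at hand for 25 of the 32 genes. The decamer consensus reads the same on both strands, so each search covers both. A gene was counted if any of its promoters held a match. At least 1 exact decamer was found for 11 of the 25 genes (Aen, Ccng1, Ei24, Gtse1, Mdm2, Polk, Ppm1d, Rps27l, Sesn1, Trp53 and Wrap53), and for 9.55% of 27025 genes with a promoter. A pair of decamers up to 13 bases apart with at most 1 mismatch over both was found for 3 of the 25 (Ccng1, Gtse1 and Rps27l) and for 0.718% of all these genes. Allowing 2 mismatches added Sesn1, against 4.71% of all these genes. Allowing 3 gave 9 of the 25, with Aen, Mdm4, Plk3, Trp53 and Wrap53 added, against 17.4% of all these genes. Trp53 and Wrap53 are divergent neighbours and share 1 site. The best pairs of 5 genes follow, the 4 with at most 2 mismatches and Aen. Aen, with 3 mismatches, was added because it was called higher. Mdm4, Plk3, Trp53 and Wrap53, also reached only with 3, were not called, and their pairs are not shown. Capitals mark the decamers.
Ccng1: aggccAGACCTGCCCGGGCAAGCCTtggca
Gtse1: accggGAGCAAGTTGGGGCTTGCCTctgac
Rps27l: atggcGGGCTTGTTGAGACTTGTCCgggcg
Sesn1: tggGCGCTTGGCCttcAAGCTTGTTTttg
Aen: aagccGGGCTTGTCCGGGCAAGGAGcttcc

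RefSeq lists 1 start for Ccng1 and 2 for each of the other 4 genes, and the windows of all of a gene's starts were searched. These starts differ from the outermost gene start in GENCODE, so each site is placed by both. In GRCm38.p6 the Ccng1 stretch lies at chr11:40755457-40755486 on the minus strand, and its site begins 195 bases upstream of the RefSeq start and 170 bases upstream of the GENCODE start. The Gtse1 stretch lies at chr15:85859940-85859969 on the plus strand, 1 base upstream of a RefSeq start and 200 bases downstream of the GENCODE start. The Rps27l stretch lies at chr9:66946291-66946320 on the plus strand, 117 bases upstream of a RefSeq start and 210 bases downstream of the GENCODE start. The Sesn1 stretch lies at chr10:41887250-41887278 on the plus strand, 186 bases upstream of an internal RefSeq start and 77318 bases downstream of the GENCODE start, has 2 mismatches, and its decamers are 3 bases apart. The Aen stretch lies at chr7:78895932-78895961 on the plus strand, 10 bases downstream of a RefSeq start and 83 bases downstream of the GENCODE start, and has 3 mismatches. The genes shown differed in their RNA values. Mdm4, Plk3, Trp53 and Wrap53 were not called, though Plk3 was higher at an unadjusted p. Ccng1 and Aen were called higher, Gtse1 was higher at an unadjusted p only, Rps27l was not called, and Sesn1 was the one gene lower at an unadjusted p. The promoters of Eda2r, Phlda3, Psrc1 and Pidd1, all called higher, held no exact decamer in this window. Many p53 sites are known to lie in introns or further upstream, which this window leaves out.

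Among the death receptors and apoptosis machinery, 4 of 9 genes rose in Eed cKO and none fell. Eda2r, among the 4, passed the filter only through its Eed cKO libraries, so it adds no support to this count. Of all genes tested, 3.54% were called higher and 2.9% lower. The median log2 fold change of the group was 0.64. Eda2r, on chromosome X (97333840 to 97377216, minus strand, GRCm38), encodes the ectodysplasin A2 receptor, a member of the TNF receptor family. It had 81 and 83 counts in the Eed cKO libraries, against 12 and 10 in the WT libraries. The groups were far apart, also beyond counting error, with 95% Poisson intervals of 64.3 to 101 and 66.1 to 103 in Eed cKO against 6.20 to 20.96 and 4.80 to 18.4 in WT. Its level was 82.1 ± 1.77 normalized counts in Eed cKO and 10.9 ± 1.36 in WT (SD, n = 2 each). The ratio of these means was 7.51. The 95% interval, here and below from the limma log2 fold change, was 4.51 to 10.8. The log2 fold change was 2.80 ± 0.26 (SE, limma). Without Eed cKO A, the library with high Xist, the log2 fold change of this X-linked gene was 2.83. Eda2r was the only gene of the set that passed the filter through its Eed cKO libraries alone, so no limma p is quoted for it.

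Tnfrsf10b, on chromosome 14 (69767472 to 69784411, plus strand), encodes the mouse receptor for the death ligand TRAIL. It had 58 and 68 counts in the Eed cKO libraries, against 15 and 26 in the WT libraries. The groups did not overlap, and the WT libraries differed from each other more in proportion than the Eed cKO libraries did. Its level was 63.1 ± 7.35 normalized counts in Eed cKO and 20.4 ± 7.81 in WT, 3.09-fold higher (1.77 to 5.40), with a log2 fold change of 1.63 ± 0.33 and an adjusted p of 0.045 in limma. Without WT A the adjusted p was 0.0547, and with a filter at 50 normalized counts it was no longer called. The third death receptor, Fas, had 43 and 53 counts in Eed cKO libraries, against 17 and 25 in WT libraries. Those groups were also apart, at 48.0 ± 7.28 normalized counts in Eed cKO and 20.9 ± 5.71 in WT. The ratio was 2.30 (1.36 to 3.79) and the log2 difference 1.18 ± 0.30, and the test was not passed (adjusted p = 0.0803 in limma). All 3 receptors had few reads in WT, between 10 and 26 counts a library.

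Pidd1, on chromosome 7 (141438113 to 141444025, minus strand), encodes a scaffold that activates caspase-2. It had 126 and 141 counts in the Eed cKO libraries, against 72 and 66 in the WT libraries. The groups were well apart, at 134 ± 11.2 normalized counts in Eed cKO and 68.5 ± 3.93 in WT, 1.95-fold higher (1.45 to 2.57). The log2 fold change was 0.95 ± 0.17 (adjusted p = 0.032 in limma). It was not called in DESeq2 (adjusted p = 0.0548) or by limma without WT B (adjusted p = 0.0675). Aen, on chromosome 7 (78895854 to 78911209, plus strand), encodes an apoptosis enhancing nuclease. It had 562 and 565 counts in Eed cKO libraries, against 366 and 360 in WT libraries. Replicates were nearly equal in both groups, which lay at 564 ± 4.55 normalized counts in Eed cKO and 361 ± 2.74 in WT. The rise was 1.56-fold (1.35 to 1.80), a log2 fold change of 0.64 ± 0.08 (adjusted p = 0.0145 in limma).

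The remaining genes of this group did not pass. Apaf1, the core of the apoptosome, had 262 and 288 counts in Eed cKO libraries, against 262 and 308 in WT libraries (fold 0.972, interval 0.781 to 1.21). Perp, a membrane protein of desmosomes and p53-linked death, had 124 and 99 counts in Eed cKO libraries, against 140 and 142 in WT libraries, and was at 79.6% of the WT level (interval of the fold 0.596 to 1.06). Its groups did not overlap, but Eed cKO A lay closer to WT A than to Eed cKO B. Ei24, a protein of the endoplasmic reticulum, had 2403 and 2585 counts in Eed cKO libraries, against 2472 and 2513 in WT libraries (fold 1.01, interval 0.893 to 1.14). Ddias, a suppressor of DNA damage-induced apoptosis, had 35 and 20 counts in Eed cKO libraries, against 26 and 17 in WT libraries, too few for a narrow interval (fold 1.29, 0.649 to 2.43). Adjusted p-values of these 4 in limma ran from 0.28 to 0.947. The log2 fold changes of the 4 called genes moved little without an Eed cKO library, for Pidd1 to 1.04 without A and 0.87 without B, and for Aen to 0.65 and 0.63.

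In the group of survival signalling and RNA, Phlda3 rose and the other genes did not pass (median log2 fold change 0.24 over 3 genes). Phlda3, on chromosome 1 (135766119 to 135769136, plus strand), encodes a small pleckstrin homology protein that competes with the kinase Akt for membrane lipids and so restrains survival signalling. It had 523 and 491 counts in the Eed cKO libraries, against 244 and 218 in the WT libraries. Every Eed cKO value was about 2 times the WT values, at 507 ± 20.5 normalized counts in Eed cKO and 229 ± 17.3 in WT, 2.21-fold higher (1.84 to 2.64). The log2 fold change was 1.14 ± 0.11 (adjusted p = 0.00798 in limma), which ranked 71 of 15020 by p. Without Eed cKO A or B its log2 fold change was 1.10 or 1.18. Zmat3, an RNA-binding zinc finger protein that controls splicing, differed little, with 2422 and 2423 counts in Eed cKO libraries against 2472 and 2283 in WT libraries (fold 1.03, interval 0.913 to 1.15). Rps27l, a ribosomal protein S27 relative, had 85 and 89 counts in Eed cKO libraries, against 70 and 78 in WT libraries (fold 1.18, 0.875 to 1.60, adjusted p = 0.447 in limma).

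Among the cell cycle and proliferation genes, 2 of 6 rose and none fell, where 3.54% of all genes tested were called higher and 2.9% lower. The median log2 fold change of the group was 0.45. Ccng1, on chromosome 11 (40748552 to 40755311, minus strand), encodes cyclin G1, which recruits phosphatase 2A to Mdm2. It had 1898 and 1922 counts in the Eed cKO libraries, against 1384 and 1383 in the WT libraries. Replicates nearly coincided, at 1911 ± 25.2 normalized counts in Eed cKO and 1375 ± 4.92 in WT, 1.39-fold higher (1.25 to 1.55), with a log2 fold change of 0.47 ± 0.06 and an adjusted p of 0.0152 in limma. In normalized counts it was the largest gain of the called genes, although the smallest in fold. Psrc1, on chromosome 3 (108383839 to 108388231, plus strand), encodes a spindle microtubule protein. It had 220 and 239 counts in Eed cKO libraries, against 132 and 113 in WT libraries. The groups were apart, at 229.7 ± 14.4 normalized counts in Eed cKO and 122 ± 12.9 in WT, 1.89-fold higher (1.47 to 2.41), a log2 fold change of 0.91 ± 0.14 (adjusted p = 0.0234 in limma). Without Eed cKO A the log2 fold changes were 0.49 for Ccng1 and 0.98 for Psrc1, and without Eed cKO B they were 0.46 and 0.85.

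Plk3 and Gtse1 were higher at an unadjusted p under 0.05 only. Plk3, a polo-like kinase of the stress response, had 390 and 346 counts in Eed cKO libraries, against 279 and 273 in WT libraries. Its groups did not overlap (fold 1.34, 1.12 to 1.61, log2 0.42 ± 0.11, adjusted p = 0.0786 in limma). Gtse1, a microtubule protein that restrains p53, had 57 and 55 counts in Eed cKO libraries, against 35 and 35 in WT libraries. Its groups were apart, and the ratio was 1.61 (1.11 to 2.30, log2 0.67 ± 0.22, adjusted p = 0.128 in limma). The other genes of the group lay near a ratio of 1. Plk2, a polo-like kinase induced by neuronal activity, had 3965 and 4294 counts in Eed cKO libraries, against 4187 and 4310 in WT libraries (fold 0.979, 0.862 to 1.11). Btg2, an antiproliferative gene of neural progenitors, had 503 and 419 counts in Eed cKO libraries, against 417 and 501 in WT libraries (fold 1.01, 0.803 to 1.27). Dividing cell markers were lower in Eed cKO for 3 of 12 genes and higher for none, with summed levels of 1230 to 1336 normalized counts in Eed cKO against 1657 to 1937 in WT, and no marker was at 0 in all libraries. Their part in the values of Psrc1 and Gtse1, which act in mitosis, was not tested.

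**Figure D2:**
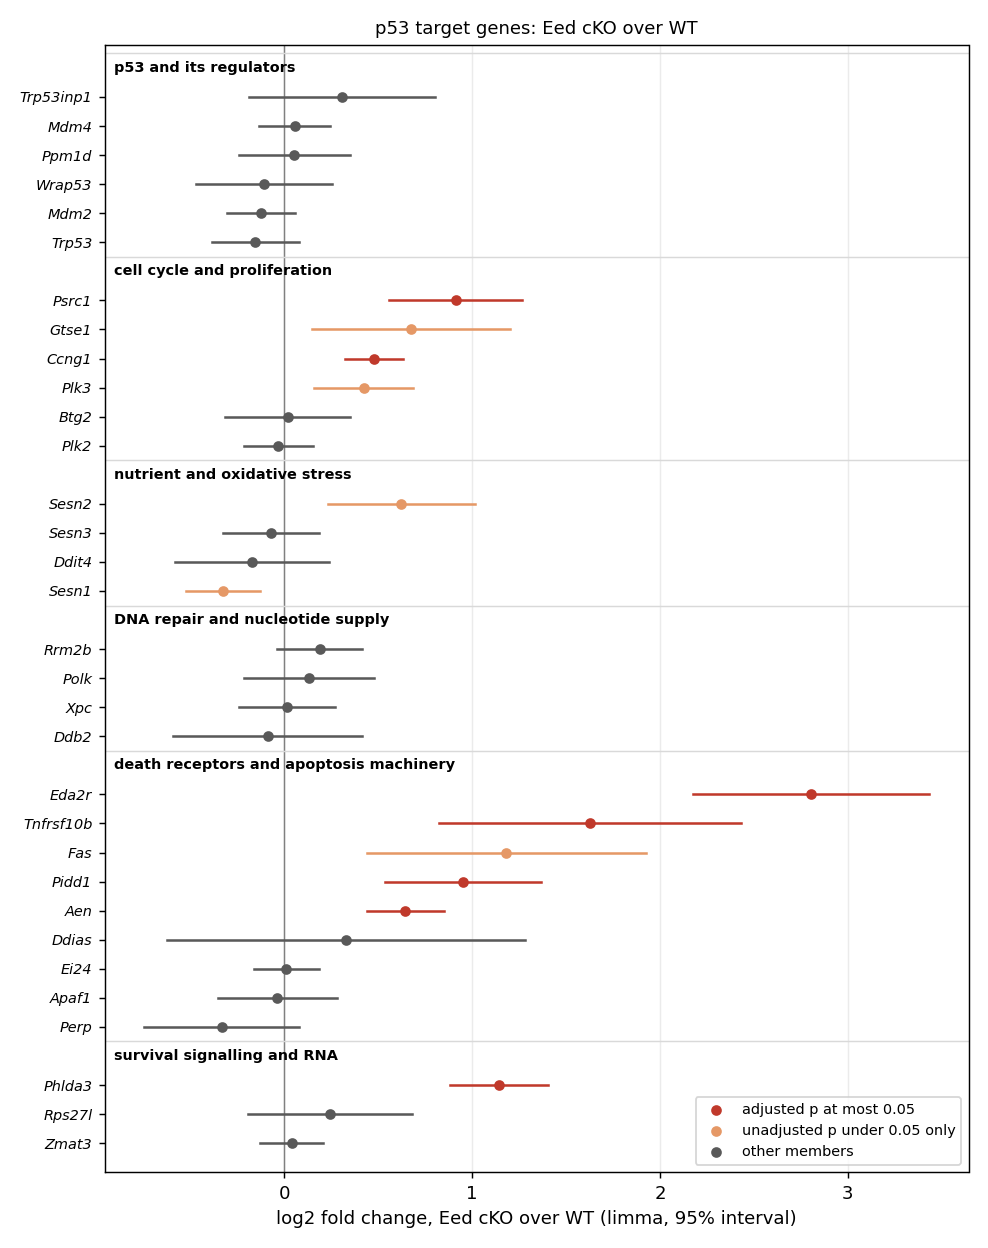
Log2 fold change (Eed cKO over WT) of the 32 genes by role, with bars for the 95% interval from limma. The 7 called genes are in red and reach from 0.47 (Ccng1) to 2.80 (Eda2r), the 5 genes at an unadjusted p under 0.05 only are in orange, and the other 20 lie between 79.6% and 1.29 times the WT level.

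No gene among p53 and its regulators passed the test, and their median log2 fold change was -0.03 over 6 genes, 0 of them at an unadjusted p under 0.05. Trp53 had 637 and 732 counts in the Eed cKO libraries, against 772 and 760 in the WT libraries. Both Eed cKO values lay under both WT values, at 685 ± 70.2 normalized counts in Eed cKO and 761 ± 5.32 in WT, 90.0% of the WT level (log2 -0.16 ± 0.09, adjusted p = 0.36 in limma), with an interval of the fold of 0.765 to 1.05. Mdm2, the ligase that p53 itself induces, had 973 and 906 counts in Eed cKO libraries, against 1016 and 1047 in WT libraries. It too lay slightly under WT, at 940 ± 43.4 normalized counts in Eed cKO and 1025 ± 25.97 in WT, 91.7% of the WT level (0.809 to 1.04, log2 -0.13 ± 0.07, adjusted p = 0.349 in limma). The upper bounds of both intervals lie under the lower bound of every called gene's interval. Mdm4 had 915 and 979 counts in Eed cKO libraries, against 944 and 892 in WT libraries. The groups overlapped, at 948 ± 49.4 normalized counts in Eed cKO and 912 ± 32.8 in WT (fold 1.04, 0.911 to 1.18, adjusted p = 0.703 in limma).

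Ppm1d, the phosphatase Wip1 that ends the p53 response, had 489 and 472 counts in Eed cKO libraries, against 421 and 517 in WT libraries (fold 1.03, 0.844 to 1.27). Wrap53, a Cajal body protein encoded beside Trp53, had 178 and 148 counts in Eed cKO libraries, against 171 and 182 in WT libraries (fold 0.93, 0.721 to 1.19). Both pairs of groups overlapped. Trp53inp1, a cofactor that p53 induces, had 503 and 522 counts in Eed cKO libraries, against 335 in WT A and 519 in WT B. WT A was the one library that stood apart, and the fold of 1.21 had an interval of 0.877 to 1.75 (log2 0.31 ± 0.20, adjusted p = 0.4 in limma). Without WT B, the library with few choroid plexus transcripts, Trp53inp1 was called higher (adjusted p = 0.0315 in limma, 0.0189 in edgeR).

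The sestrins and Ddit4, which restrain the growth kinase complex mTORC1, did not move together, and 0 of 4 passed in limma. Sesn2 had 862 and 698 counts in the Eed cKO libraries, against 581 and 442 in the WT libraries. Its groups did not overlap but varied within, at 780.2 ± 113 normalized counts in Eed cKO and 508 ± 95.6 in WT, a ratio of 1.54 (1.18 to 2.02, log2 0.62 ± 0.16, adjusted p = 0.0791 in limma). DESeq2 called it higher (adjusted p = 0.0127), as did limma without WT A (adjusted p = 0.0247). Sesn1 had 775 and 792 counts in Eed cKO libraries, against 947 and 1034 in WT libraries. Both Eed cKO values lay under both WT values, at 784 ± 15.4 normalized counts in Eed cKO and 984 ± 65.2 in WT, 79.7% of the WT level (0.696 to 0.913, log2 -0.33 ± 0.08, adjusted p = 0.072 in limma). Without WT A it was called lower (adjusted p = 0.0459 in limma, 0.0337 in edgeR). Sesn3 had 1193 and 1126 counts in Eed cKO libraries, against 1117 and 1343 in WT libraries (fold 0.949, 0.798 to 1.14). Ddit4, also known as REDD1, had 1268 and 903 counts in Eed cKO libraries, against 1124 and 1315 in WT libraries (fold 0.896, 0.667 to 1.18). Both of these overlapped between the groups.

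None of the 4 genes of DNA repair and nucleotide supply passed, and 0 reached an unadjusted p under 0.05. Rrm2b, the p53-induced subunit of ribonucleotide reductase, had 410 and 426 counts in Eed cKO libraries, against 378 and 361 in WT libraries (fold 1.14, 0.9747 to 1.33, adjusted p = 0.268 in limma). Polk, a translesion DNA polymerase, had 140 and 152 counts in Eed cKO libraries, against 132 and 136 in WT libraries (fold 1.10, 0.863 to 1.39). The groups of both genes were apart by a narrow margin. Xpc, which detects lesions for nucleotide excision repair, had 294 and 282 counts in Eed cKO libraries, against 280 and 295 in WT libraries (fold 1.01, 0.846 to 1.204). Ddb2, which binds ultraviolet damage in the same pathway, had 149 and 104 counts in Eed cKO libraries, against 128 and 139 in WT libraries (fold 0.954, 0.663 to 1.33). Both Eed cKO values of Ddb2 lay outside its WT range, on opposite sides. Exons of Ddb2, Rrm2b, Ei24 and Plk3 overlap exons of a gene on the opposite strand by 23.8%, 8.04%, 6.66% and 3.32% of their length, and with no strand setting known for the counting, reads of the partners cannot be told apart.

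**Figure D3:**
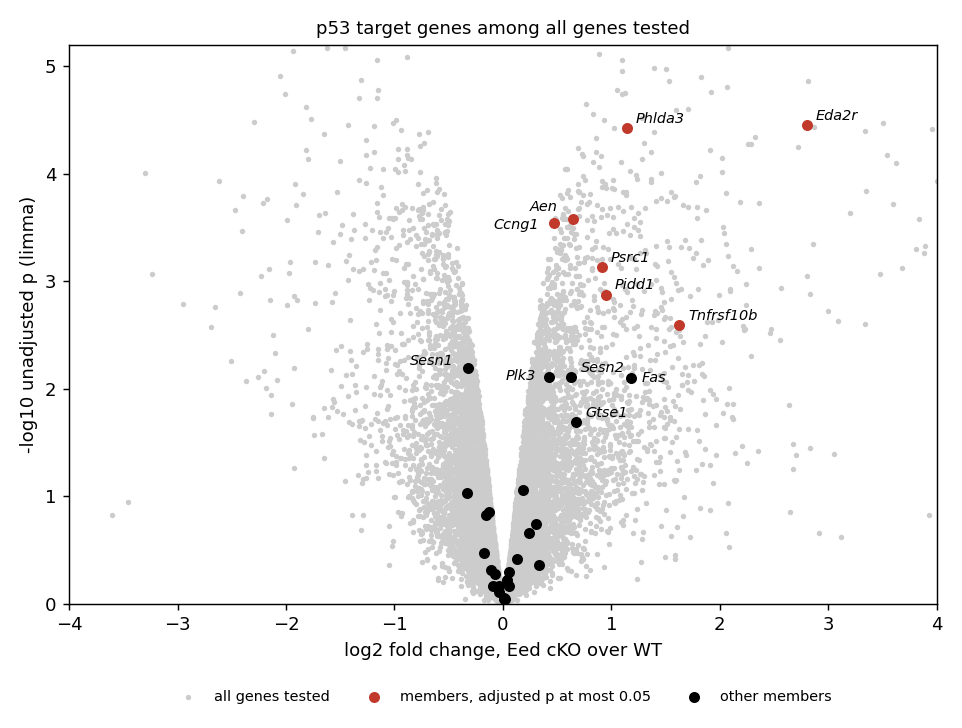
Unadjusted p (limma, as -log10, vertical) against log2 fold change (Eed cKO over WT, horizontal) for all genes tested in grey, the 7 called genes of the set in red and the other 25 in black. The red points are all on the right, led by Eda2r at 2.80, and no black point is called on either side (53 genes lie outside the axes).

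The called genes differed widely in level as well as in fold. Per kilobase of exon, Eda2r was the lowest of the set in WT, with 13.9 normalized counts in Eed cKO and 1.85 in WT. Plk2 was the highest in both groups, with 920 normalized counts per kilobase in Eed cKO and 939.98 in WT. The medians over the 32 genes were 79.1 in Eed cKO and 75.9 in WT. The groups of all 7 called genes did not overlap, so leaving out any 1 library could not change their sign in limma. Their log2 fold changes in limma then ran from 2.69 to 2.92 for Eda2r, 1.25 to 2.01 for Tnfrsf10b, 1.07 to 1.22 for Phlda3 and 0.46 to 0.49 for Ccng1.

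**Figure D4:**
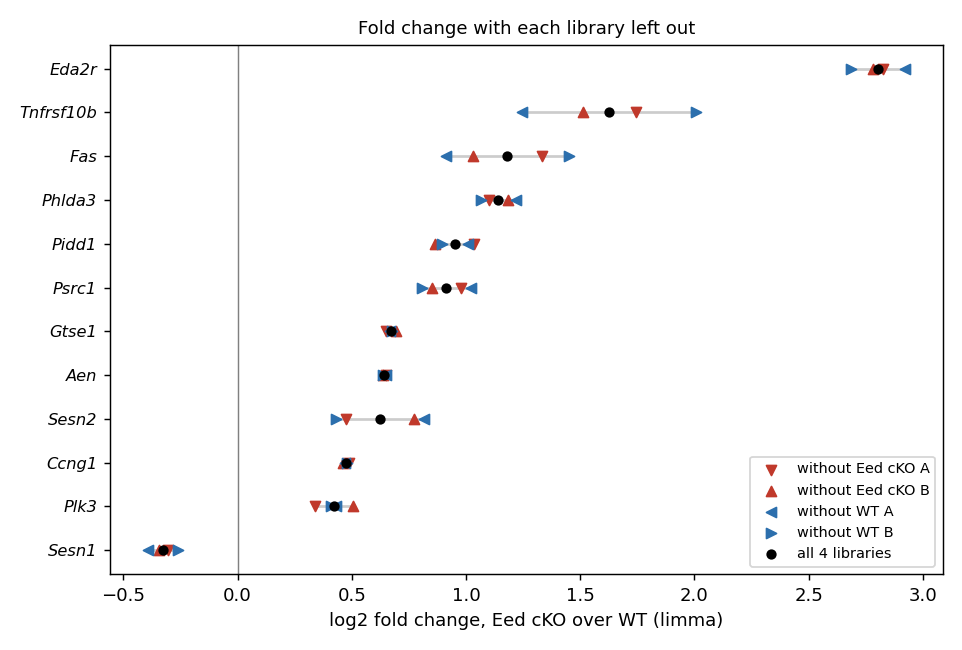
Log2 fold change (Eed cKO over WT, limma) of the 12 genes at an unadjusted p under 0.05, with all 4 libraries (black) and with each library left out (red for an Eed cKO, blue for a WT library). Aen, Ccng1 and Gtse1 hardly move, and Tnfrsf10b spans 1.25 to 2.01. The groups of the 12 genes do not overlap, so none can cross 0.

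Other genes of the p53 pathway were taken as 3 lists, of which 75 genes were tested. Of these, 9 were higher and 1 lower in Eed cKO in limma, where 6.44% of all genes tested were called in either direction, and the median log2 fold change was -0.02. The 9, here and in the counts that follow, include Cdkn2a. It passed the filter only through the Eed cKO libraries, so it adds no support to this comparison. Without WT A there were 9 higher and 3 lower (Gls2 and Steap3 added), and without WT B 9 higher and 2 lower (Bid added). Of 28 genes upstream of p53, Cdkn2a was the only one called. It encodes p16 and Arf, the inhibitor of Mdm2, and had 135 and 149 counts in the Eed cKO libraries, against 0 and 0 in the WT libraries. In Eed cKO it averaged 95.3 times a floor of 3 counts over both WT libraries, or 1.49 normalized counts. That ratio includes no error on the Eed cKO side. It passed the filter only through the Eed cKO libraries, so its call is given with no p. The reads do not separate its p16 and Arf transcripts here. The damage kinases and adaptors did not pass, among them Atm, with 84 and 59 counts in Eed cKO libraries against 70 and 84 in WT libraries (adjusted p = 0.809 in limma), and Chek2, with 66 and 71 in Eed cKO libraries against 80 and 64 in WT libraries (adjusted p = 0.898 in limma).

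Of 19 other p53 targets of arrest and death, 4 were higher and none lower, beside 3.54% higher and 2.9% lower of all genes tested. Pmaip1, the BH3-only protein Noxa, had 115 and 147 counts in Eed cKO libraries, against 28 and 25 in WT libraries, 4.98-fold higher (adjusted p = 0.00909 in limma). Rprm, a mediator of G2 arrest, had 796 and 848 counts in Eed cKO libraries, against 300 and 383 in WT libraries, 2.42-fold higher (adjusted p = 0.00972 in limma). Cdkn1a, the cyclin-dependent kinase inhibitor p21, had 1357 and 1232 counts in Eed cKO libraries, against 678 and 516 in WT libraries, 2.18-fold higher (adjusted p = 0.0131 in limma). None of these 3 overlapped between the groups. Fbxw7, a ubiquitin ligase subunit, was 1.28-fold higher, with 2844 and 3036 counts in Eed cKO libraries against 2318 and 2307 in WT libraries (adjusted p = 0.04 in limma), but was not called without WT B (adjusted p = 0.0575 in limma), where Bid was called lower (0.0470). Bax, with 609 and 664 counts in Eed cKO libraries against 576 and 605 in WT libraries, and Bbc3, with 297 and 254 in Eed cKO libraries against 228 and 226 in WT libraries, did not pass (adjusted p = 0.458 and 0.222 in limma).

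Of 28 targets in metabolism, repair and other roles, 4 were higher and 1 lower, beside 3.54% higher and 2.9% lower of all genes tested. Without WT A, Gls2 (adjusted p = 0.0371 in limma) and Steap3 (0.0269) were called lower as well, and without WT B Abhd4 was called higher (0.0254). Ephx1, a microsomal epoxide hydrolase, had 1377 and 1601 counts in Eed cKO libraries, against 673 and 500 in WT libraries, 2.56-fold higher (adjusted p = 0.0119 in limma). Tap1, a peptide transporter of antigen presentation, had 284 and 237 counts in Eed cKO libraries, against 120 and 97 in WT libraries, 2.42-fold higher (adjusted p = 0.0151 in limma). The metabolic enzymes Dcxr and Ak1 also rose. Dcxr had 215 and 216 counts in Eed cKO libraries, against 109 and 105 in WT libraries (2.03-fold, adjusted p = 0.0145 in limma). Ak1 had 2882 and 2957 counts in Eed cKO libraries, against 2019 and 1869 in WT libraries (1.51-fold, adjusted p = 0.013 in limma). Ano3, a membrane protein of the anoctamin family, fell to 542 and 576 counts in Eed cKO libraries, against 1004 and 863 in WT libraries, 60.3% of the WT level (adjusted p = 0.0158 in limma). Without Eed cKO A or B the log2 fold change was 1.48 or 1.25 for Ephx1, and 0.62 or 0.57 for Ak1.

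Markers of several cell types moved with the genotype beside these genes. For comparison, 3.54% of all genes tested were called higher and 2.9% lower. Pyramidal neuron markers of the CA fields were higher for 5 of 10 genes and lower for 1, with summed levels of 28368 to 31568 normalized counts in Eed cKO against 22568 to 22879 in WT. Interneuron markers were higher for 2 of 10, at 19273 to 19594 in Eed cKO against 14250 to 14657 in WT. Immature neuron markers were lower for 6 of 10 (23690 to 25551 in Eed cKO, 28188 to 28249 in WT), astrocyte markers for 4 of 10 (76159 to 76687 in Eed cKO, 95609 to 114751 in WT) and fibroblast markers for 8 of 10, with 1 higher (5652 to 5808 in Eed cKO, 8780 to 10983 in WT). Microglial and oligodendrocyte markers had 1 higher gene each, and 0 choroid plexus or endothelial markers were called. No marker was at 0 in all libraries. The part of these shifts in the values of the 32 genes was not tested.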

How the data were processed

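The dentate gyrus RNA-seq of 2 Eed cKO and 2 WT samples was grouped by sample title. Per the submitters' processing notes, HISAT2 2.1.0, DESeq2 1.2.0 and build GRCm38 were used. What counted the reads, with which strand setting and annotation, is not given in the sources used here. The authors' table, per the file headers, holds group means of a normalized signal, log2 fold changes with errors, a Wald score, and raw and adjusted p-values. The deposited signals are means over 2 counts, each divided by its size factor, and whole read counts were recovered for 100% of the 18042 genes (tolerance 1e-08, largest residual 6.26e-10). Which title number each recovered library carries is unknown. Log2 fold changes from DESeq2 1.42.0 on these counts were within 6.76e-05 of those the authors deposited, and all 1047 deposited calls were shared. The deposited adjusted p of 1 in 2999 genes (mean signal at most 8.98) was treated as missing.

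Counts were divided by size factors (0.996 to 1.01). limma 3.58.1 with an intensity trend was fitted in R 4.3.3 to log2(normalized count + 1), keeping genes at 10 or more normalized counts in 2 or more libraries, with genotype as the only term (2 residual and 4.00 prior degrees of freedom). Benjamini-Hochberg adjustment ran over 15020 genes, and genes at an adjusted p of 0.05 or less were called. Fits are two-sided, SD is over 2 libraries a group, and log2 fold changes understate changes of low genes. Folds are ratios of mean normalized counts, while their intervals come from the limma log2 fold changes and so are not centred on the folds. The SE and the limma intervals rest on a variance that limma draws toward the intensity trend over all genes tested. They are therefore not the spread of the replicates alone. An exact permutation test of 2 against 2 cannot go below p = 0.333. Poisson intervals and the floor of 3 counts cover counting error only. The authors' mean signal and log2 values carry depth only through the recovered counts. Alternatives were edgeR 4.0.16 (quasi-likelihood, TMM), DESeq2, the deposited table, other pseudocounts, filters and scaling, no trend, and each library left out.

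Gene coordinates and exon lengths are from GENCODE M21 (18030 IDs matched), and promoters from RefSeq GRCm38.p6. The 32 genes, the pathway and marker lists, and the rule that names all 32 genes and up to 4 called genes of each pathway list were chosen with earlier results of these data known. Bax, Bbc3, Atm and Chek2, as genes that did not pass, and Bid, Gls2, Steap3 and Abhd4, called only with a WT library left out, were named after their values were seen.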

Additional observations from a re-analysis of the deposited data

How the results depend on the processing

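The 967 genes past the threshold in limma became 473 with no filter on low values and 221 without an intensity trend. With 1 library left out, the count ran from 0 (limma without Eed cKO A or Eed cKO B, where the spread comes from WT alone) to 1669 (edgeR without WT A). The 7 genes of the set called higher became 2 without an intensity trend (Eda2r and Phlda3) and 5 with no filter (Aen, Ccng1, Eda2r, Phlda3 and Psrc1). With 1 library left out, the spread comes from the other group alone, so the calls of those fits say little. Eda2r passed the filter only through its Eed cKO libraries, so its calls add no support. The number called lower was 0, and 1 (Sesn1) without WT A. DESeq2 and the authors' deposited table also gave 7, with Sesn2 in place of Pidd1. No called gene changed sign under any of the 17 alternatives run, while 13 uncalled genes changed sign in at least 1 fit with a library left out. The groups of the called genes did not overlap, so a limma fit with a library left out could not change their sign. TMM scaling shifted the median of all genes by 0.0093 on the log2 scale. The cause of these changes was not tested. No paired analysis was possible because the recovered libraries carry no replicate number. Low counts in at least 1 group (Eda2r, Tnfrsf10b, Fas, Gtse1, Ddias) leave wide intervals.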
